A study of Mus musculus with 30 samples.

Results

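The genes described here are 9 genes of the complement system, taken by symbol from the 32386 gene symbols to which the transcripts in the files were assigned. They are the protease genes *C1ra* and *C1s1*, the convertase components *C4b*, *C2* and *C3*, the alternative pathway factors *Cfb* and *Cfd*, the terminal component *C7*, and *Serping1*, which encodes the C1 inhibitor. Of the 17564 genes with enough counts to be tested, 8 were members of this group, and *Cfd* did not pass the filter on low counts. Bulk RNA-seq had been made of 10 stromal populations sorted from mouse intestinal lamina propria, with 3 libraries per population and 30 in all. The mice were untreated C57BL6/Nrj animals of 8 to 10 weeks, and the RNA was amplified as whole transcriptome before library preparation. Sorting left out dead cells and cells that bound antibodies to blood lineage markers, CD31, BP3, EpCAM or, at a high level, NCAM. The labels name 3 individual mice, and the study sorted both tissues of the same mice in independent experiments, but neither says which libraries shared a mouse. Deviations from the population means correlated on average by 0.00763 between libraries with the same number and by −0.00346 between libraries with different numbers.

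From the small intestine, pericytes were sorted by the gate PDGFRα-ESAM-1+PDPN-. Smooth muscle cells (SMC) differed from them in this gate only by being PDPN+. Small intestinal fibroblasts (FB) were ESAM-1- cells divided into PDGFRα hiCD34- cells (PDGFRα hi FB), PDGFRα intCD34- cells (Fgfr2+ FB) and PDGFRα intCD34+ cells (CD34+ FB), of which the last held both CD81+ and Igfbp5+ FB. From the colon, pericytes were taken with the same gate as in the small intestine. Colonic ESAM-1- FB were PDPN+CD34- cells (PDGFRα hi FB), PDPN hiCD34+CD90- cells (Fgfr2+ FB), PDPN hiCD34+CD90+ cells (CD90+ FB) and PDPN intCD34+CD90- cells (CD81+ FB). The gates of Fgfr2+ FB therefore differed between the tissues in CD34, and for both Fgfr2+ and PDGFRα hi FB the small intestinal gate used PDGFRα and the colonic gate PDPN. These differences cannot be told apart from tissue in the comparisons of the subsets. There was no colonic SMC library.

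Complement is a cascade of plasma and tissue proteins that marks targets for uptake and can pierce membranes. In the classical pathway, C1q bound to a target activates the proteases C1r and C1s, which cleave C4 and C2 into a convertase that splits C3. Mannose-binding lectin and related lectins feed into the same step through MASP proteases, while factors B and D amplify C3 cleavage in the alternative pathway, and C5 to C9 then assemble the membrane attack complex. The liver makes most plasma complement, and stromal cells are known as a local source of C3 in the gut.

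Levels are given as CPM, that is, estimated counts summed to genes and scaled to a library total of 1000000 with trimmed mean of M values (TMM) factors, as mean ± SD (n = 3) or as the values of replicates 1, 2 and 3 in that order. The estimated counts of a library summed to between 2245052 and 19096945 (median 9601683). By population, the totals lay between 13102446 and 18710840 in colonic CD81+ FB, between 14456220 and 19096945 in colonic CD90+ FB, between 8740291 and 9785938 in colonic Fgfr2+ FB, between 6865683 and 7248567 in colonic PDGFRα hi FB and between 9225411 and 13866610 in colonic pericytes. They lay between 9432531 and 11930055 in small intestinal CD34+ FB, between 2245052 and 15098412 in small intestinal Fgfr2+ FB, between 7327358 and 18148945 in small intestinal PDGFRα hi FB, between 8866828 and 13507159 in SMC and between 6185421 and 9075187 in small intestinal pericytes. A count of 0 allows up to 3 counts, which corresponded to between 0.142 and 1.04 CPM in a library, and this floor covers counting error only. Where all libraries of a group together held 1 to 3 counts, the ratio of mean CPM is given with its 95% counting interval, which covers the error of those counts alone. Differences are log2 fold changes from 1 edgeR fit of all 30 libraries, tested with edgeR's quasi-likelihood test. Their 95% intervals are approximate and symmetric, with a standard error derived from the fold change and the F statistic of that test. A gene was called in a comparison when its Benjamini-Hochberg adjusted p over the 17564 genes was below 0.05 and its absolute log2 fold change was above 1.5. In bulk samples, fewer cells of a type that express a gene and less RNA per cell cannot be told apart.

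The sorted populations carried the marker transcripts of their gates in most cases. PDGFRα hi FB led in *Pdgfra* with 6518 ± 324 CPM (small intestine) and 2444 ± 88.3 CPM (colon), against at most 26.9 CPM on average in pericytes and SMC. *Esam* averaged 109.6 CPM in small intestinal pericytes, 141 CPM in colonic pericytes and 119 CPM in SMC, against at most 0.732 CPM in any FB population. *Pdpn* separated SMC at 10.1 ± 3.96 CPM from small intestinal pericytes at 0.185 ± 0.220 CPM. The pericyte gene *Rgs5* was highest in colonic pericytes (33484 ± 8471 CPM) and small intestinal pericytes (31730.1 ± 8849 CPM), yet it also reached 5054 ± 1877 CPM in SMC and 3801 ± 326 CPM in small intestinal CD34+ FB. The smooth muscle gene *Myh11* was highest in SMC (11502 ± 2001 CPM) and stood at 6991 ± 157 CPM in colonic pericytes. *Fgfr2* marked small intestinal Fgfr2+ FB at 1646 ± 291 CPM, whereas colonic Fgfr2+ FB at 473 ± 26.4 CPM were close to colonic CD90+ FB at 366 ± 65.0 CPM. *Cd81* was at 373 ± 92.7 CPM in colonic CD81+ FB, whose gate did not use CD81, and is not compared with other populations here. *Thy1*, which encodes CD90, was highest among FB in the colonic CD90+ subset (197 ± 51.3 CPM), followed by CD81+ FB (98.8 ± 35.0 CPM). Small intestinal CD34+ FB had 629 ± 63.1 CPM of *Cd34*, against 85.7 ± 51.3 CPM in small intestinal Fgfr2+ FB.

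Over all genes tested, the library most similar to a given library belonged to the same population in 20 of 30 cases, and no libraries were identical. The exceptions were the 3 libraries each of colonic CD81+ FB, colonic Fgfr2+ FB and small intestinal Fgfr2+ FB, whose nearest library was from colonic CD90+ FB or small intestinal CD34+ FB, and replicate 3 of small intestinal pericytes, which was nearest to a colonic pericyte library. Transcripts listed for other cell types were found as well. The 8 genes of the leukocyte list summed to 234, 80.0 and 87.7 CPM in small intestinal pericytes and 103, 225 and 86.1 CPM in colonic pericytes. *Cd68* led both sums with means of 115 and 45.3 CPM, whereas *Adgre1*, *Tyrobp* and *Fcer1g* were at 0 in all 3 small intestinal pericyte libraries. The 6 fibroblast genes summed to 4726, 3964 and 3214 CPM in small intestinal pericytes, 2290.1, 2625 and 2542 CPM in colonic pericytes and 8217, 7429 and 12389 CPM in SMC, led by *Col3a1* in pericytes and *Col1a1* in SMC. The 6 endothelial genes reached their highest mean sum, 356 CPM, in colonic CD81+ FB, where *Tek* gave 307 CPM of it. Mean sums of the 6 epithelial genes, the 5 mesothelial genes and the 6 adipocyte genes did not exceed 10.6, 6.70 and 16.2 CPM in any population, and those of the 5 glial genes 31.6 CPM. The 4 plasma cell genes were led by *Xbp1* in the mean of every population, with mean sums between 60.6 CPM in SMC and 299 CPM in small intestinal Fgfr2+ FB. The libraries of these Fgfr2+ FB had 153, 471 and 273 CPM. Of this, *Igkc* gave 0.139, 244 and 84.4 CPM and led in replicate 2, while *Mzb1* was at 0, 0 and 2.77 CPM. The 3 genes listed for interstitial cells of Cajal gave the largest of these sums outside the fibroblast list, with 1157, 584 and 742 CPM in small intestinal and 807, 901 and 687 CPM in colonic pericytes. *Ano1* led them with means of 778 and 723 CPM, whereas *Kit* was at 0.429, 0 and 8.36 CPM and 0, 0.126 and 0 CPM. In the other populations *Etv1* led, and the mean sums lay between 18.8 CPM (SMC) and 469 CPM (PDGFRα hi FB of the small intestine).

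Members can be compared with each other only per length, as CPM per kilobase of effective transcript length. On that scale *Serping1* was the most abundant member in small intestinal CD34+ FB at 3098 ± 490.0 CPM per kb, followed by *C3* at 2302 ± 642, *C4b* at 743 ± 106 and *C1s1* at 646 ± 110.2 CPM per kb. *C7*, *Cfb* and *C1ra* followed in that population at 162 ± 52.1, 134 ± 30.3 and 133 ± 24.9 CPM per kb, and *C2* at 30.2 ± 4.56 CPM per kb. The inhibitor and the central component thus stood at the top of the list in these cells. In colonic CD81+ FB, *C3* at 2705 ± 1213 CPM per kb stood beside *Serping1* at 2356 ± 386 CPM per kb. In small intestinal PDGFRα hi FB the per-length order was different, with *Serping1* at 605 ± 169, *C1s1* at 496 ± 94.8 and *C7* at 466 ± 65.1 CPM per kb, and *C3* at only 3.85 ± 0.424 CPM per kb. Colonic pericytes combined 639 ± 279 CPM per kb of *Serping1* and 429 ± 120.3 CPM per kb of *C1s1* with 2.32 ± 0.412 CPM per kb of *C3* and 1.37 ± 1.02 CPM per kb of *C4b*.

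The members lie on 5 chromosomes of the GRCm38 build. *C1ra* (ENSMUSG00000055172.10) is at chr6:124512405-124523443 on the + strand, and *C1s1* (ENSMUSG00000038521.17) is close to it at chr6:124530345-124542359 on the − strand. On chromosome 17 the − strand carries *C4b* (ENSMUSG00000073418.4, chr17:34728380-34743882), *Cfb* (ENSMUSG00000090231.10, chr17:34856374-34862518) and *C2* (ENSMUSG00000024371.14, chr17:34862604-34898265) as near neighbours. *C3* (ENSMUSG00000024164.15) lies farther along the same chromosome and strand at chr17:57203970-57228136. The other members are *C7* (ENSMUSG00000079105.4, chr15:4988762-5063740, − strand), *Serping1* (ENSMUSG00000023224.12, chr2:84765387-84775444, − strand) and *Cfd* (ENSMUSG00000061780.6, chr10:79890853-79892655, + strand). All 9 are annotated as protein-coding genes.

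The initiating proteases differed in how widely they varied. *C1s1* encodes C1s, the protease that cleaves C4 and C2, and was present in every library. Its means were 1100.0 ± 327 CPM in colonic CD81+ FB, 1079 ± 184 CPM in small intestinal CD34+ FB, then 966 ± 198 CPM in colonic Fgfr2+ FB. Next came small intestinal Fgfr2+ FB (869.8 ± 221 CPM), colonic CD90+ FB (862 ± 181 CPM), small intestinal pericytes (852 ± 223 CPM) and small intestinal PDGFRα hi FB (829 ± 158 CPM). Colonic PDGFRα hi FB (815 ± 149 CPM), colonic pericytes (717 ± 201 CPM) and SMC (528 ± 72.1 CPM) closed the order. Every population overlapped its neighbour in this order, and the highest mean was 2.08 times the lowest, the smallest ratio among the 8 members tested. About 33.5% of the 31-base stretches of *C1s1* transcripts also occurred in *C1s2*, whose level did not exceed 1.32 CPM in any population. Genes with the most similar profile over the 30 libraries were *Cygb* (Pearson's r of log2 CPM 0.831), *Rpl4* (0.829) and *Serping1* (0.764).

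*C1ra* encodes C1r, which activates C1s, and varied more. It was highest in small intestinal CD34+ FB (370.3 ± 69.3 CPM) and colonic CD81+ FB (296 ± 115 CPM), followed by small intestinal Fgfr2+ FB (210.3 ± 115 CPM) and small intestinal PDGFRα hi FB (188 ± 61.5 CPM). Colonic Fgfr2+ FB (172 ± 53.4 CPM) and colonic CD90+ FB (166 ± 47.7 CPM) completed a set of 6 FB populations in which each overlapped the next. The libraries of colonic CD90+ FB did not overlap those of the next population, colonic PDGFRα hi FB (110.2 ± 14.8 CPM), which overlapped SMC (84.5 ± 40.6 CPM), and SMC overlapped small intestinal pericytes (65.2 ± 6.84 CPM). Colonic pericytes (30 ± 2.82 CPM) were separate from all others. As 59.3% of its 31-base stretches also occurred in other genes (56.9% in *C1rb*), *C1ra* was treated as uncertain, although *C1rb* itself did not exceed 0.30 CPM in any population. *Rrbp1* (r 0.886), *Htra3* (0.884) and *Abca8a* (0.876) followed *C1ra* most closely over the 30 libraries.

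*C4b* encodes C4, the first substrate of C1s. Small intestinal CD34+ FB had the highest level, with 2496, 2277 and 1875 CPM in replicates 1, 2 and 3, above every library of every other population. Small intestinal Fgfr2+ FB (836 ± 403 CPM), colonic CD90+ FB (581 ± 321 CPM), colonic Fgfr2+ FB (479 ± 134 CPM), SMC (420.4 ± 155 CPM) and colonic CD81+ FB (359 ± 149.9 CPM) formed a middle tier in which neighbours overlapped. Colonic CD81+ FB, which led in *C3*, were thus lowest in this tier for *C4b*. A lower tier held small intestinal pericytes (65.4 ± 34.1 CPM), colonic PDGFRα hi FB (53.3 ± 29.6 CPM) and small intestinal PDGFRα hi FB (46.5 ± 22.8 CPM), which overlapped. Colonic pericytes, with 3.66, 1.26 and 7.33 CPM, were below all of them, so that the highest mean was 543 times the lowest. Over all libraries 90.4% of the *C4b* counts were on the coding transcript ENSMUST00000069507.8, but in replicate 1 of small intestinal pericytes it held 17.7%, with 42.9% on a transcript with a retained intron and 39.3% on one annotated for nonsense-mediated decay. Sequence shared between *C4b* and *C4a* was not counted, because no transcript was assigned to *C4a*, and its part in the *C4b* level was not tested. The profile of *C4b* was closest to those of *Sfrp1* (r 0.923), *Lepr* (0.890) and *Bche* (0.871).

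*C2* encodes the protease subunit that joins C4b in the classical convertase, and it was among the least abundant members per length. Its order began with small intestinal pericytes (36.9 ± 25.3 CPM) and small intestinal CD34+ FB (29.5 ± 4.45 CPM), which overlapped. The libraries of small intestinal CD34+ FB were separate from those of small intestinal Fgfr2+ FB (19.9 ± 5.28 CPM). From there each population overlapped the next, through colonic CD81+ FB (18.2 ± 8.08 CPM), colonic CD90+ FB (11.1 ± 7.74 CPM), small intestinal PDGFRα hi FB (8.84 ± 7.07 CPM), colonic Fgfr2+ FB (8.82 ± 5.90 CPM), colonic PDGFRα hi FB (7.15 ± 2.57 CPM), SMC (5.2 ± 3.45 CPM) and colonic pericytes (5.15 ± 3.57 CPM). The pericyte values did not represent the coding transcript alone. A processed transcript, ENSMUST00000130728.1 at chr17:34877054-34881967, held 42.1% of all *C2* counts, and it took 99.3% of them in replicate 1 of small intestinal pericytes and 12% in replicate 3. In replicate 2, 63.9% of the counts were on a transcript with a retained intron. The share of 31-base stretches found in other genes was 44.4% for *C2*, mostly in the readthrough model *Gm20547*. *Ncam2* (r 0.736) and *Ppp1r9b* (0.732) were among the genes with the most similar profiles.

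*C3*, the component on which all pathways converge, had the widest absolute range. Colonic CD81+ FB had 7033, 15959 and 8727 CPM and small intestinal CD34+ FB 10899, 9941 and 6154 CPM, and these populations overlapped. Both lay above all other libraries. The next tier held colonic Fgfr2+ FB with 439, 1191 and 2510.4 CPM, colonic CD90+ FB with 587, 1593 and 703 CPM and small intestinal Fgfr2+ FB with 639, 392 and 164 CPM, each overlapping the next. Within colonic Fgfr2+ FB, replicate 3 was the highest and replicate 1 the lowest. Below a gap followed colonic PDGFRα hi FB with 29.7, 56.5 and 76.2 CPM, small intestinal pericytes with 70.5, 7.07 and 25.6 CPM and SMC with 21.3, 40.9 and 34.8 CPM. Small intestinal PDGFRα hi FB had 16.9, 14.6 and 13.7 CPM and colonic pericytes 8.93, 7.56 and 10.8 CPM, the lowest mean of the 10. The small intestinal pericyte libraries ranged so widely that they overlapped all 4 other populations of this low tier. The highest mean was 1164 times the lowest, and 98.7% of the counts were on the coding transcript ENSMUST00000024988.14. *Adh1* (r 0.929), *Gsn* (0.926) and *Flrt3* (0.925) followed *C3* most closely over the 30 libraries.

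Of the alternative pathway factors, *Cfb* encodes factor B, the protease subunit of the alternative convertase. It was highest in small intestinal CD34+ FB with 203, 128 and 164 CPM, above every other library. Colonic CD81+ FB (86.6 ± 34.4 CPM), small intestinal Fgfr2+ FB (65.6 ± 36.8 CPM), colonic Fgfr2+ FB (43.0 ± 33.1 CPM) and colonic CD90+ FB (36.9 ± 13.4 CPM) followed. Lower means were found in small intestinal PDGFRα hi FB (23.9 ± 14.3 CPM), SMC (13.8 ± 6.66 CPM), colonic pericytes (11.4 ± 18.2 CPM), small intestinal pericytes (9.23 ± 16.0 CPM) and colonic PDGFRα hi FB (2.94 ± 3.04 CPM). From colonic CD81+ FB to the last population each overlapped the next. The pericyte means each rested on 1 library, since the 3 libraries had 0, 0 and 27.7 CPM in the small intestine and 32.4, 0.126 and 1.80 CPM in the colon. *Cfb* shared 75.5% of its 31-base stretches with *Gm20547*, a readthrough model of the locus, and was treated as uncertain. Its profile was most like those of *Nat8f3* (r 0.850), *Sema3b* (0.844) and *Abca8a* (0.800).

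*Cfd* encodes factor D, the protease that activates factor B and is well known as an adipocyte product. It had 30 counts over all 30 libraries, of which 13 fell in replicate 1 of colonic CD90+ FB at 0.615 CPM, the highest value. A count was present in 7 libraries, and 23 were at 0. All libraries of colonic pericytes, colonic PDGFRα hi FB, small intestinal pericytes, SMC and small intestinal Fgfr2+ FB were at 0, and in 26 libraries the count did not exceed 3. Means in the remaining populations were 0.247 CPM in colonic CD90+ FB, 0.177 CPM in small intestinal CD34+ FB, 0.153 CPM in small intestinal PDGFRα hi FB, 0.111 CPM in colonic CD81+ FB and 0.0325 CPM in colonic Fgfr2+ FB, all overlapping. Differences in *Cfd* were not detectable at this depth.

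*C7* joins the membrane attack complex before it inserts into a membrane. It was highest in small intestinal PDGFRα hi FB with 1178, 1327 and 1000.5 CPM, the FB population in which *C3* and *C4b* were lowest. Small intestinal CD34+ FB with 545, 392 and 284 CPM were separate below it, and small intestinal Fgfr2+ FB had 230.2, 67.1 and 164 CPM. In the colon, only CD81+ FB, with 134, 99.9 and 29.2 CPM, reached the range of a small intestinal FB population, and they overlapped small intestinal Fgfr2+ FB. Every other population averaged at most 7.0 CPM. These were colonic Fgfr2+ FB (7.0 ± 3.91 CPM), small intestinal pericytes (4.58 ± 4.28 CPM), colonic CD90+ FB (4.23 ± 3.35 CPM), SMC (2.24 ± 1.04 CPM), colonic PDGFRα hi FB (0.989 ± 1.5 CPM) and colonic pericytes (0.717 ± 1.06 CPM), each overlapping the next. The highest mean was 1629 times the lowest, which stood near the floor. All *C7* counts were on 1 coding transcript, and none of its 31-base stretches occurred in other genes. *Ifi205* (r 0.791), *Smoc2* (0.781) and *Kcnk2* (0.770) had the most similar profiles, less close than the best matches of *C3* and *C4b*.

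*Serping1*, whose product inactivates C1r, C1s and the MASP proteases, was abundant in all populations. Small intestinal CD34+ FB (4248 ± 672 CPM) and colonic CD81+ FB (3230.2 ± 529 CPM) were highest and overlapped each other. Small intestinal Fgfr2+ FB (2126 ± 568 CPM) were separate below colonic CD81+ FB and overlapped colonic Fgfr2+ FB (1877 ± 537 CPM), which overlapped colonic CD90+ FB (1713 ± 375 CPM). Small intestinal pericytes had 2910.0, 1174 and 982 CPM, with replicate 1 inside the range of colonic CD81+ FB and the others far below it. Colonic PDGFRα hi FB (968 ± 99.9 CPM), SMC (901 ± 377 CPM), colonic pericytes (876 ± 382 CPM) and small intestinal PDGFRα hi FB (829.8 ± 231 CPM) were lowest and overlapped. The gene followed *C3* more closely (r 0.868) than any other gene considered, then *Aebp1* (0.860) and *Heg1* (0.834). This was also the highest correlation between any members, the lowest being that of *C1s1* and *Cfb* (0.198). These correlations over 30 libraries are descriptions that share libraries and depth.

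**Figure D1:**
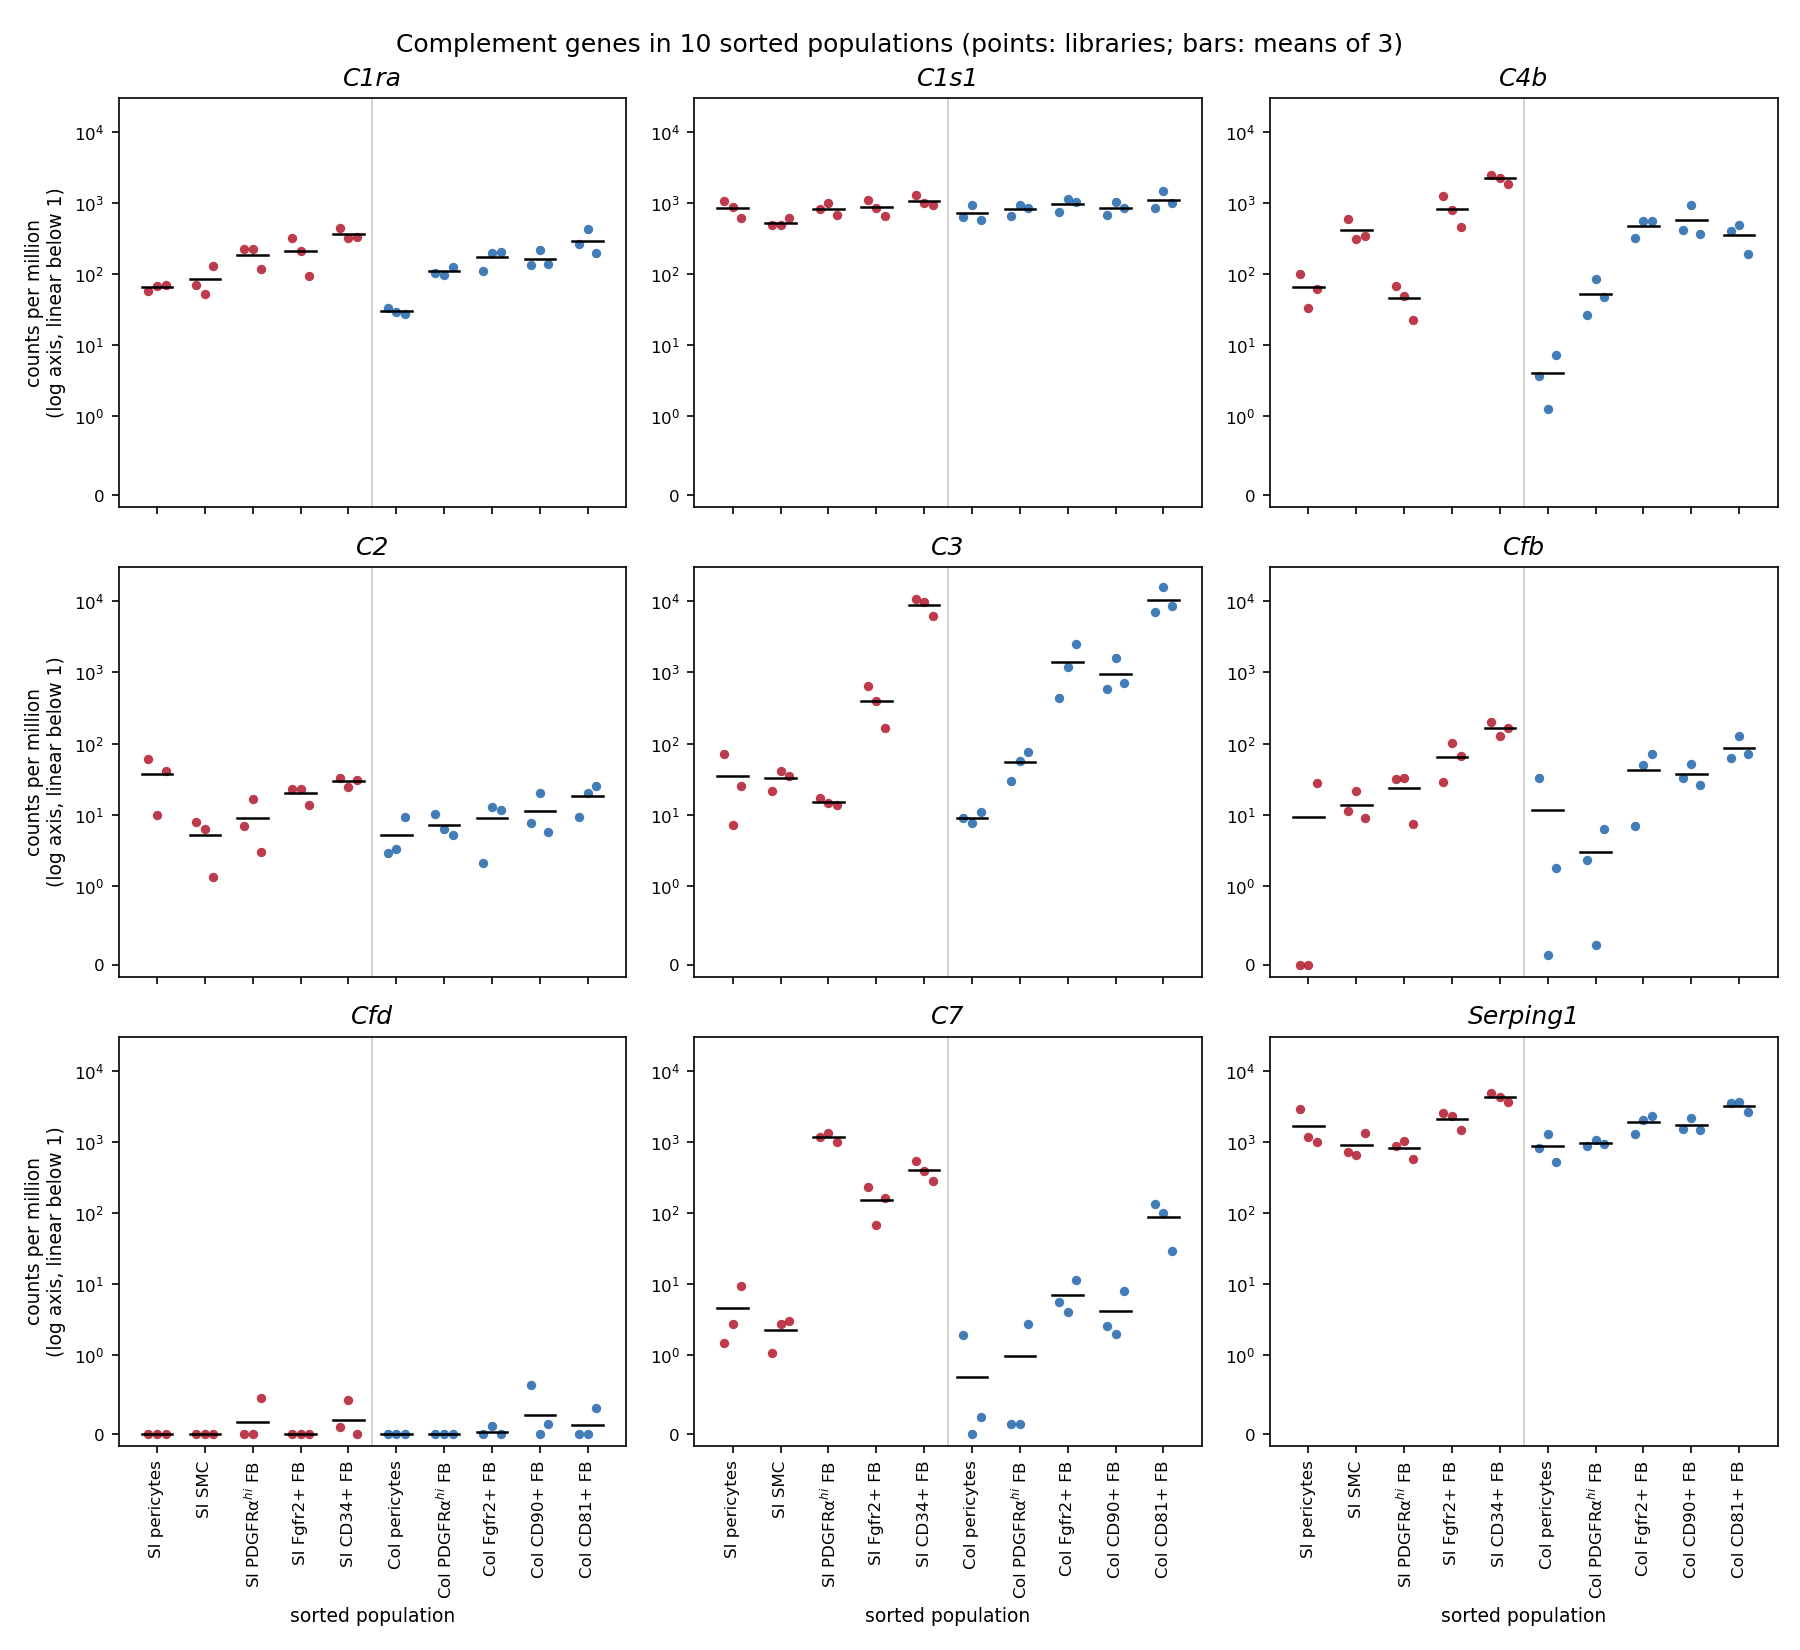
Level of each of the 9 complement genes (CPM, log axis that is linear below 1) in the 10 sorted populations, with each point a library and each bar the mean of 3. *C3* spans from about 9.09 CPM on average in colonic pericytes to 10573 CPM in colonic CD81+ FB, the means of *C1s1* stay between 528 and 1100.0 CPM, *C7* peaks in small intestinal PDGFRα hi FB, and *Cfd* stays below 1 CPM in every library.

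The first comparison asked which complement genes distinguish FB as a whole from pericytes, using the mean of the log levels of the FB populations of a tissue. In the small intestine 4 of the 8 members tested were called, where 16.6% of all genes were called, and all 4 were higher in FB. *C7* was above every pericyte library (1.5, 2.78 and 9.47 CPM) in all 9 FB libraries, the lowest of which had 67.1 CPM. The difference was 6.48 (95% interval 4.5 to 8.46, adjusted p 1.27e-05), and 7.57 without replicate 3 of the pericytes. *C1ra* was likewise higher in all 9 FB libraries than in pericytes, which had 57.4, 68.0 and 70.2 CPM, with a difference of 1.91 (95% interval 1.15 to 2.66, adjusted p 0.000381). *C3* differed by 3.47 (95% interval 2.23 to 4.70, adjusted p 0.000101) and *C4b* by 2.76 (95% interval 1.69 to 3.82, adjusted p 0.000273). For both, CD34+ FB and Fgfr2+ FB were above all pericyte libraries and PDGFRα hi FB were not, so that the groups overlapped. Replicate 1 was the pericyte library with the most *C3* (70.5 CPM), *C4b* (101 CPM), *Serping1* (2910.0 CPM), *C2* (59.8 CPM) and *Cd68* (228 CPM), and the part of other cells in this was not tested. Without that library *C3* differed by 4.55 and *C4b* by 3.24. With all libraries, *C4b* differed by 1.36 (adjusted p 0.139) with counts scaled to transcript length and by 3.53 on protein-coding transcripts only. The lists for leukocytes and for interstitial cells of Cajal were higher in every pericyte library than in any FB or SMC library, and the endothelial list (278, 164 and 161 CPM) was higher in small intestinal pericytes than in FB libraries of the tissue (at most 91.1 CPM). Their part in the comparisons with pericytes was not tested.

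The other 4 tested members were not called in this comparison. *C1s1* differed by 0.11 (95% interval −0.37 to 0.59, adjusted p 0.812) and *Serping1* by 0.21 (95% interval −0.40 to 0.83, adjusted p 0.687), so that a change of the size seen for *C3* lay outside both intervals. *C2* differed by −1.09 (95% interval −2.36 to 0.18, adjusted p 0.227). *Cfb*, with 0 counts in 2 of the 3 pericyte libraries, differed by 2.77 (95% interval 0.19 to 5.36, adjusted p 0.125) and was called without a filter (2.79, adjusted p 0.0469) but not with the other alternatives of processing (adjusted p up to 0.152). It was also called (adjusted p 0.000562) without replicate 3, the only pericyte library with a count, where the mean of FB was at least 166-fold higher by the mean floor of the other 2. With length-scaled counts the *C1s1* difference turned to −0.33, and without pericyte replicate 3 it turned to −0.07 and that of *Serping1* to −0.06, while without pericyte replicate 1 that of *Serping1* was 0.89 (adjusted p 0.0613).

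In the colon, 4 of the 8 tested members were called between FB and pericytes, against 16% of all genes, again all higher in FB. *C3* was at 8.93, 7.56 and 10.8 CPM in colonic pericytes and at 29.7 CPM or more in each of the 12 FB libraries. No library of one group reached the other, and the difference was 6.68 (95% interval 5.2 to 8.15, adjusted p 4.37e-08). *C4b*, at 3.66, 1.26 and 7.33 CPM in pericytes, had 26.5 CPM or more in FB libraries and differed by 6.02 (95% interval 4.72 to 7.32, adjusted p 2.84e-08). *C1ra* at 32.9, 29.7 and 27.3 CPM in pericytes was also separate from all FB libraries and differed by 2.54 (95% interval 1.76 to 3.32, adjusted p 1.05e-05). *C7* differed by 3.31 (95% interval 1.53 to 5.09, adjusted p 0.00717), with overlapping groups, since the pericytes had 1.94, 0 and 0.215 CPM and colonic PDGFRα hi FB 0.123, 0.128 and 2.72 CPM. That value rested on few counts and was 5.63 without pericyte replicate 1, which left 3 counts in pericytes (ratio of mean CPM 232, 95% counting interval 79.2 to 1123), 2.81 (adjusted p 0.0510) without pericyte replicate 3, and 2.60 without PDGFRα hi FB replicate 3. *C4b* differed by 6.76 without pericyte replicate 3 and by 5.27 with length-scaled counts. The smooth muscle list (10103, 11227 and 11131 CPM) was higher in colonic pericytes than in colonic FB libraries (at most 2129 CPM) and the plasma cell list (30.2, 75.2 and 95.9 CPM) lower than in them (at least 108 CPM), and the part of both was not tested.

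*Serping1* was higher in colonic FB by 1.02 (95% interval 0.39 to 1.66, adjusted p 0.0197), short of the fold change required. The differences of *C1s1* (0.37, 95% interval −0.10 to 0.85, adjusted p 0.278), *C2* (1.04, 95% interval −0.37 to 2.44, adjusted p 0.320) and *Cfb* (1.14, 95% interval −1.13 to 3.42, adjusted p 0.535) were not called, and that of *C1s1* was −0.16 with length-scaled counts. In both tissues, then, the called differences concerned C1r, C4, C3 and C7, while *C1s1*, *C2*, *Cfb* and *Serping1* were called in neither. Whether a member differed more in the colon than in the small intestine was not tested for this contrast.

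Between SMC and pericytes of the small intestine, 2 of the 8 tested members were called, against 10.2% of all genes. *C4b* was at 598, 314 and 348 CPM in SMC and 101, 33.5 and 61.4 CPM in pericytes. All SMC libraries were above all pericyte libraries, with a difference of 2.69 (95% interval 1.53 to 3.84, adjusted p 0.00175), although *C3* (21.3, 40.9 and 34.8 CPM in SMC) differed by only −0.08 (95% interval −1.29 to 1.13, adjusted p 0.978). The fibroblast list was also higher in SMC, as given above, and its part in the *C4b* difference was not tested. *C2* was lower in SMC, with 7.91, 6.35 and 1.32 CPM against 59.8, 9.72 and 41.3 CPM, and did not overlap. Its difference was −2.83 (95% interval −4.59 to −1.06, adjusted p 0.0319). With length-scaled counts *C4b* differed by 1.53 (adjusted p 0.181), and on protein-coding transcripts by 3.50. *C2* lost its call without pericyte replicate 1 (−2.24, adjusted p 0.121), SMC replicate 2 (−3.0, 0.0731) or SMC replicate 3 (−2.31, 0.137), without a filter on low counts (−2.75, 0.0506), on protein-coding transcripts (−3.56, 0.188) and in a fit of the compared libraries alone (−2.79, 0.304).

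The next comparisons asked how FB subsets of the same tissue differ. Fgfr2+ FB and PDGFRα hi FB of the small intestine differed in 2 of the 8 tested members, against 2.52% of all genes. *C3* was at 639, 392 and 164 CPM in Fgfr2+ FB and 16.9, 14.6 and 13.7 CPM in PDGFRα hi FB. Every Fgfr2+ FB library was higher, and the difference was 4.73 (95% interval 3.33 to 6.13, adjusted p 5.21e-05). *C4b* had 1256, 799 and 453 CPM against 67.7, 49.5 and 22.3 CPM, again without overlap, and differed by 4.17 (95% interval 2.93 to 5.40, adjusted p 5.17e-05). *C7* went the other way, with 230.2, 67.1 and 164 CPM in Fgfr2+ FB and 1178, 1327 and 1000.5 CPM in PDGFRα hi FB. Those groups did not overlap either, and the difference of −2.93 (95% interval −4.65 to −1.20, adjusted p 0.0578) was not called. It was called with DESeq2 (−2.86, adjusted p 0.0125), without a filter (−2.86, 0.00753), with the replicate block (−3.08, 0.0403) and in a fit of the compared libraries alone (−2.86, 0.00495), but not with the other 3 alternatives of processing (adjusted p up to 0.0922) nor with any of the 6 libraries left out (0.0977 to 0.239). *Serping1* was higher in Fgfr2+ FB by 1.36 (95% interval 0.60 to 2.12, adjusted p 0.0418), below the fold change required, which it passed on protein-coding transcripts (1.5, adjusted p 0.0229) and without Fgfr2+ FB replicate 3 (1.56, 0.0310). The plasma cell list was also higher in Fgfr2+ FB, as given above, than in PDGFRα hi FB (101, 97.6 and 87.7 CPM). The lists for smooth muscle (772, 907 and 567 against 2081, 3395 and 2373 CPM), pericytes (2146, 1847 and 2028 against 2924, 3404 and 2921 CPM) and interstitial cells of Cajal (87.5, 129 and 127 against 476, 427 and 505 CPM) were lower in Fgfr2+ FB, also without overlap. The part of these lists in the differences was not tested.

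In the colon the same subsets also differed in 2 of the 8 tested members, against 1.33% of all genes. *C3* was at 439, 1191 and 2510.4 CPM in Fgfr2+ FB and 29.7, 56.5 and 76.2 CPM in PDGFRα hi FB. The groups did not overlap, and the difference of 4.67 (95% interval 3.28 to 6.07, adjusted p 9.25e-05) was close to that in the small intestine. *C4b* was at 324, 563 and 550.2 CPM against 26.5, 85.1 and 48.2 CPM, also without overlap, and differed by 3.17 (95% interval 1.99 to 4.35, adjusted p 0.00160). *C7* was low in both, at 5.58, 4.0 and 11.4 CPM and 0.123, 0.128 and 2.72 CPM, and its difference of 2.84 (95% interval 0.92 to 4.75, adjusted p 0.198) was not called. PDGFRα hi FB of both tissues were therefore poor in *C3* and *C4b*, and those of the small intestine alone were rich in *C7*. The colonic *C3* difference was 3.91 without Fgfr2+ FB replicate 3 and 4.05 with length-scaled counts. The lists for smooth muscle (252, 261 and 497 against 1248, 1139 and 2129 CPM) and interstitial cells of Cajal (125, 75.4 and 42.7 against 229.9, 291 and 238 CPM) were lower in Fgfr2+ FB without overlap. Those for leukocytes (40.8, 48.5 and 60.1 against 13.4, 35.3 and 18.3 CPM), plasma cells (187, 220.0 and 165 against 154, 109 and 108 CPM) and pericytes (537, 651 and 772 against 454, 407 and 479 CPM) were higher. The part of these lists in the differences was not tested.

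Small intestinal CD34+ FB and Fgfr2+ FB differed in 1 of the 8 tested members, against 1.21% of all genes. The member was *C3*, with 10899, 9941 and 6154 CPM in CD34+ FB and 639, 392 and 164 CPM in Fgfr2+ FB. No library of one group came near the other, and the difference was 4.5 (95% interval 3.12 to 5.88, adjusted p 0.000356). *C4b*, *C7*, *Cfb*, *C2* and *Serping1* also had all CD34+ FB libraries above all Fgfr2+ FB libraries, but none was called. Of these, *C4b* differed by 1.41 (95% interval 0.30 to 2.51, adjusted p 0.302), *C7* by 1.41 (−0.23 to 3.04, adjusted p 0.552) and *Serping1* by 1.00 (0.24 to 1.75, adjusted p 0.269). With length-scaled counts *C4b* differed by 0.75 (adjusted p 0.776). The lists for fibroblasts (95826, 44435 and 66159 against 19697, 15743 and 16051 CPM) and pericytes (3970.1, 4217 and 3581 against 2146, 1847 and 2028 CPM) were higher and those for smooth muscle (146, 127 and 157 against 772, 907 and 567 CPM) and interstitial cells of Cajal (29.2, 25.6 and 26.0 against 87.5, 129 and 127 CPM) lower in CD34+ FB, without overlap. The part of these lists in the differences was not tested.

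Colonic CD81+ FB and Fgfr2+ FB differed in 2 of the 8 tested members, against 0.939% of all genes. *C3* was at 7033, 15959 and 8727 CPM in CD81+ FB and 439, 1191 and 2510.4 CPM in Fgfr2+ FB, without overlap, and differed by 2.94 (95% interval 1.65 to 4.22, adjusted p 0.0129). *C7* was at 134, 99.9 and 29.2 CPM against 5.58, 4.0 and 11.4 CPM, also without overlap, and differed by 3.65 (95% interval 1.85 to 5.44, adjusted p 0.0348). *C4b*, in contrast, was not higher in CD81+ FB, with a difference of −0.41 (95% interval −1.5 to 0.67, adjusted p 0.851). The *C3* call was lost without CD81+ FB replicate 2 (2.51, adjusted p 0.0714) or Fgfr2+ FB replicates 1 (2.51, 0.109) or 2 (2.84, 0.0936), and without Fgfr2+ FB replicate 3 the difference was 3.70. The *C7* call was lost with length-scaled counts (3.67, 0.0569), in a fit of the compared libraries alone (3.64, 0.0569), and without CD81+ FB replicates 1 (3.21, 0.0913) or 2 (3.54, 0.0776) or Fgfr2+ FB replicates 1 (3.51, 0.188), 2 (3.36, 0.216) or 3 (4.19, 0.0713). The lists for endothelium (380.4, 372 and 316 against 59.5, 69.8 and 83.8 CPM) and fibroblasts (75198, 48979 and 64829 against 29282, 26259 and 43244 CPM) were higher in CD81+ FB, without overlap. Those for pericytes (228, 150.4 and 143 against 537, 651 and 772 CPM), smooth muscle (199.5, 35.6 and 37.9 against 252, 261 and 497 CPM) and leukocytes (11.3, 15.6 and 26.3 against 40.8, 48.5 and 60.1 CPM) were lower. The part of these lists in the differences was not tested.

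Between colonic CD90+ FB and Fgfr2+ FB, 0 of the 8 tested members were called, and 0% of all genes. edgeR called 0 genes there, while 570 had an unadjusted p below 0.05 and DESeq2 called 37. The groups overlapped for all 8 tested members. The largest difference was that of *C7*, −0.73 (95% interval −2.40 to 0.94, adjusted p 1.00), followed by *C3* at −0.52 (95% interval −1.72 to 0.67, adjusted p 1.00). *C3* turned to 0.24 without Fgfr2+ FB replicate 3, and *C4b* turned from 0.28 to −0.27 without CD90+ FB replicate 2. The lists for pericytes, smooth muscle and leukocytes were lower in CD90+ FB (147, 217 and 306, then 137, 186 and 184, then 17.8, 25.0 and 17.5 CPM) than in Fgfr2+ FB, without overlap.

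The last comparisons asked how the same population differs between small intestine and colon. Pericytes differed in 2 of the 8 tested members, against 5.69% of all genes, both higher in the small intestine. *C4b* was at 101, 33.5 and 61.4 CPM in small intestinal and 3.66, 1.26 and 7.33 CPM in colonic pericytes. The libraries did not overlap, and the difference was 3.97 (95% interval 2.73 to 5.21, adjusted p 0.000204). *C2* was at 59.8, 9.72 and 41.3 CPM against 2.90, 3.28 and 9.27 CPM, separate by a narrow margin, and differed by 2.83 (95% interval 1.07 to 4.6, adjusted p 0.0474). Many of its counts were on non-coding transcripts, as described above for the small intestine, and the processed transcript held 54.3%, 100% and 75.1% of them in the colonic libraries. *C3* differed by 1.91 (95% interval 0.65 to 3.17, adjusted p 0.0599) and *C7* by 2.71 (95% interval 0.76 to 4.65, adjusted p 0.0833), and neither was called. Both were called with DESeq2 (*C3* 2.02, adjusted p 0.0134, and *C7* 2.73, 0.0200) and without a filter (1.87, 0.0131, and 2.70, 0.0260). *C3* was also called with relative log expression scaling (2.01, 0.0470) and without small intestinal replicates 2 (2.39, 0.0148) or 3 (2.08, 0.0454), and *C7* without colonic replicate 1 (5.04, 0.0214), which left 3 counts in the colon (ratio of mean CPM 42.5, 95% counting interval 14.6 to 206). With the other alternatives of processing the adjusted p reached 0.716 for *C3* and 0.732 for *C7*, and without small intestinal replicate 1 *C3* differed by only 0.81 (0.455) and without replicate 3 *C7* by 1.62 (0.310).

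The *C4b* difference between pericytes was 4.86 with length-scaled counts, 3.27 on protein-coding transcripts, 4.71 without colonic replicate 3, and 4.01 but not called (adjusted p 0.338) in a fit of the compared libraries alone, in which no gene was called. The *C2* call was lost without colonic replicates 1 (2.55, adjusted p 0.126) or 2 (2.55, 0.130) or small intestinal replicates 1 (2.26, 0.144) or 3 (2.75, 0.0543), without a filter (2.79, 0.0625), with the replicate block (2.85, 0.0664), with length-scaled counts (2.55, 0.0627), on protein-coding transcripts (3.86, 0.174) and in the fit of the compared libraries alone (2.85, 0.590). It was 3.57 and still called without colonic replicate 3. Marker lists also moved between these pericytes. The fibroblast list, given above, was higher in every small intestinal library, as were the 6 endothelial genes, with 278, 164 and 161 CPM (led by *Tek*) against 45.1, 59.6 and 75.1 CPM (led by *Pecam1*). The 6 smooth muscle genes, led by *Myh11*, were lower, with 4531, 2985 and 3225 CPM against 10103, 11227 and 11131 CPM. Their part in the *C4b* and *C2* differences was not tested.

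PDGFRα hi FB of the tissues differed in 1 of the 8 tested members, against 0.957% of all genes, and the member was *C7*. The small intestinal libraries had 1178, 1327 and 1000.5 CPM and the colonic ones 0.123, 0.128 and 2.72 CPM. The colonic libraries held 1, 1 and 20 counts of the gene, and no small intestinal library had fewer than 8709. The difference was 10.22 (95% interval 7.78 to 12.66, adjusted p 6.31e-06). Without colonic replicate 3, which left 2 counts in the colon, the ratio of mean CPM was 9341, 95% counting interval 2586 to 77133. *C3* was lower in small intestinal than in colonic PDGFRα hi FB in every library, at −1.85 (95% interval −3.09 to −0.60, adjusted p 0.235), and was called without a filter (−1.90, adjusted p 0.0268) and in a fit of the compared libraries alone (−1.88, 0.0313), but not with the other alternatives of processing (adjusted p up to 0.293) nor with any of the 6 libraries left out (0.204 to 0.755). As given above, the gates differed and *Pdgfra* was higher in the small intestine. The lists for pericytes (2924, 3404 and 2921 against 454, 407 and 479 CPM) and interstitial cells of Cajal (476, 427 and 505 against 229.9, 291 and 238 CPM) were higher and that for plasma cells (101, 97.6 and 87.7 against 154, 109 and 108 CPM) lower there, without overlap. The part of these lists in the differences was not tested.

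Fgfr2+ FB of the tissues differed in 1 of the 8 tested members, against 1.45% of all genes, again *C7*. It was at 230.2, 67.1 and 164 CPM in the small intestine and 5.58, 4.0 and 11.4 CPM in the colon, without overlap. The difference was 4.46 (95% interval 2.59 to 6.32, adjusted p 0.00561), and without colonic replicate 2 it was 4.17 and no longer called (adjusted p 0.0561). *C3* was lower in the small intestine, at −1.79 (95% interval −3.02 to −0.56, adjusted p 0.158), with overlapping libraries, and was called only without a filter (−1.77, adjusted p 0.0343). Without colonic replicate 3 it was −1.03 (adjusted p 0.603). *C4b*, *C1ra*, *C1s1* and *Serping1* were not called between tissues in either FB subset. Whether the 2 tissue differences were themselves different was tested as an interaction, in which 1 of the 8 tested members was called, against 0.66% of all genes. The tissue difference of *C7* was smaller in Fgfr2+ FB than in PDGFRα hi FB, with an interaction of −5.76 (95% interval −8.33 to −3.19, adjusted p 0.0219). For *C3* the interaction was 0.05 (95% interval −1.62 to 1.73, adjusted p 1.000), an interval that holds differences in both directions, and it lay between −0.46 and 0.81 with single libraries left out. The *C7* call was lost without colonic Fgfr2+ FB replicate 3 (−5.22, adjusted p 0.0851), colonic PDGFRα hi FB replicates 1 (−5.23, 0.0898) or 2 (−5.24, 0.0886), small intestinal PDGFRα hi FB replicate 2 (−5.66, 0.0506) or small intestinal Fgfr2+ FB replicates 2 (−5.40, 0.0789) or 3 (−5.81, 0.0562), and without colonic PDGFRα hi FB replicate 3 the value was −8.61, with 2 counts in that population. Between Fgfr2+ FB of the tissues, the lists for pericytes (2146, 1847 and 2028 against 537, 651 and 772 CPM) and smooth muscle (772, 907 and 567 against 252, 261 and 497 CPM) were higher and that for fibroblasts (19697, 15743 and 16051 against 29282, 26259 and 43244 CPM) lower in the small intestine, without overlap. The part of these lists in the differences was not tested.

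**Figure D2:**
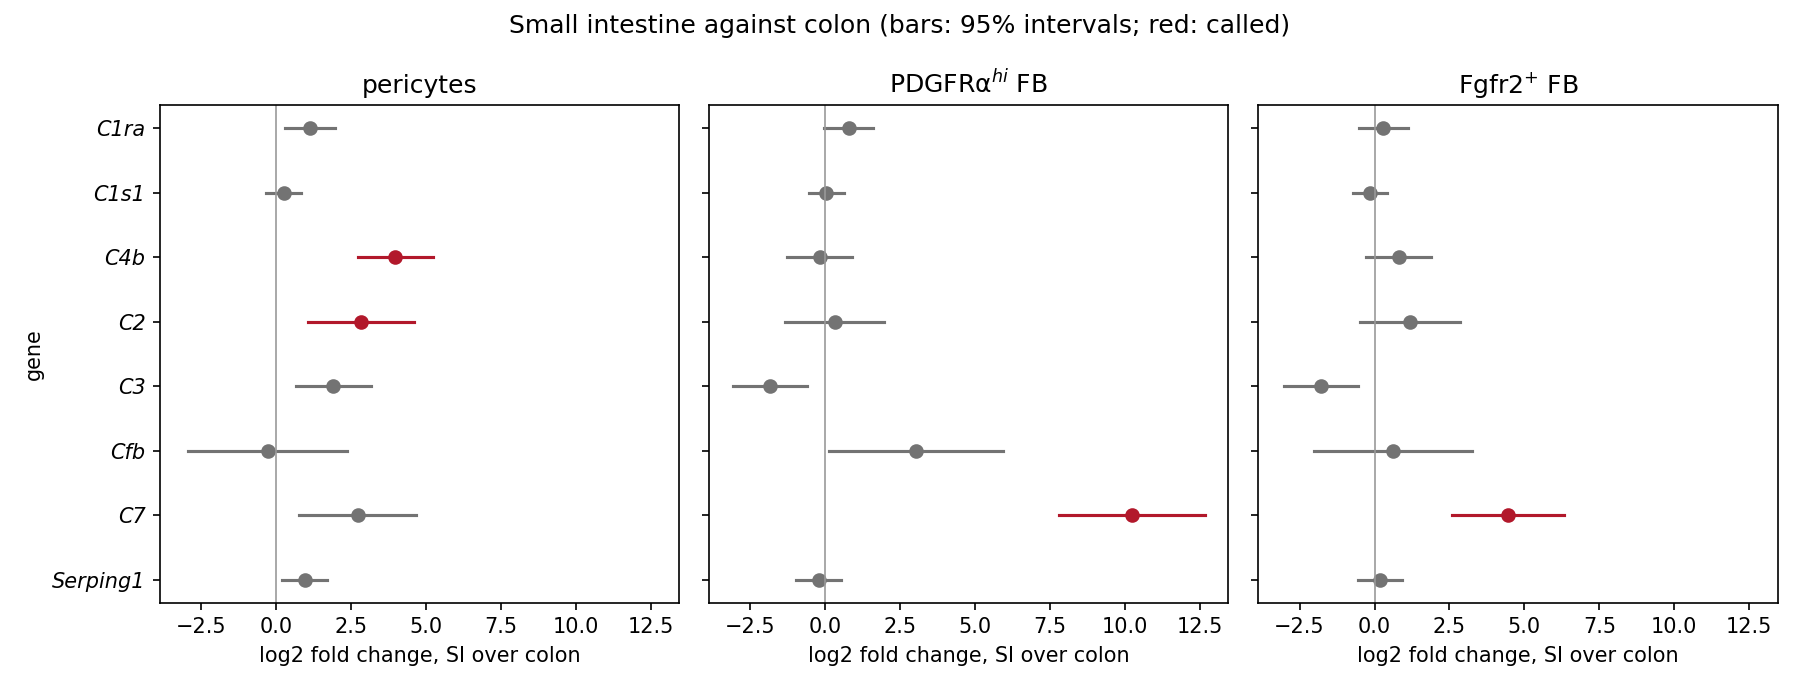
Log2 fold change of small intestine over colon for the 8 tested complement genes in pericytes, PDGFRα hi FB and Fgfr2+ FB, with points for the estimates, bars for 95% intervals (3 libraries per group) and red for genes called. *C4b* and *C2* are red in pericytes and *C7* alone in both FB subsets, while *C1s1* lies near 0 in all 3.

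The members were set beside the other complement genes, from 6 lists of 49 genes that include the members, of which 48 were in the files and 35 were tested. The missing gene was *C4a*. Of the recognition molecules, *C1qa* and *C1qb* averaged at most 2.14 and 3.15 CPM in any population. *C1qc* reached 22.8, 15.4 and 7.43 CPM in colonic Fgfr2+ FB and was at 0 in all small intestinal Fgfr2+ FB libraries, at least 30.1-fold lower there by the mean floor of those libraries and at least 63.5-fold lower without small intestinal replicate 3, the library with the highest floor. That call (adjusted p 0.0452) was lost without any 1 of the 6 libraries, with adjusted p between 0.0661 and 0.189, with the replicate block (0.0558), with length-scaled counts (0.0538) and on protein-coding transcripts (0.0559). Stroma thus held transcripts of the C1 proteases with little of the C1q chains that activate them. *Masp1*, a protease gene of the lectin pathway, averaged 51.0 CPM in small intestinal PDGFRα hi FB, 50.3 CPM in colonic Fgfr2+ FB, 38.2 CPM in colonic CD81+ FB, 33.7 CPM in colonic PDGFRα hi FB and at most 0.198 CPM in pericytes. Small intestinal Fgfr2+ FB had 0.209, 0.0902 and 8.99 CPM, so that 2 of these libraries were within the range of small intestinal pericytes (0.214, 0.379 and 0 CPM). As the mean of the log levels of the FB populations, it was higher than in pericytes by 5.96 (95% interval 3.2 to 8.72, adjusted p 0.00203) in the small intestine, where the pericyte libraries held 1, 3 and 0 counts. This was 4.6 without Fgfr2+ FB replicate 3 and 5.33 without pericyte replicate 3, and without pericyte replicate 2, which left 1 count, the ratio of mean CPM was 215, 95% counting interval 38.6 to 8484. In the colon the pericyte libraries held 1, 0 and 0 counts, and the ratio of mean CPM was 1002, 95% counting interval 179.8 to 39574, with an adjusted p of 5.83e-05 for the fit. Without pericyte replicate 1, the mean of FB was at least 121-fold higher by the mean floor of the others. *Colec11*, a lectin gene, was at 10.5, 8.96 and 6.52 CPM in small intestinal pericytes, whereas colonic pericytes averaged 1.13 CPM. Per length, the colonic pericyte libraries had 0.817, 0.957 and 1.09 CPM per kb, below the 1.21 CPM per kb of small intestinal CD34+ FB replicate 1. Within each tissue the gene was lower in FB than in pericytes, at −4.88 (95% interval −7.52 to −2.24, adjusted p 0.00831) in the small intestine and at −4.5 (95% interval −6.96 to −2.03, adjusted p 0.00898) in the colon. The difference reached −5.75 without small intestinal Fgfr2+ FB replicate 1 and −5.59 without PDGFRα hi FB replicate 1, and in the colon −5.28 without PDGFRα hi FB replicate 3. Without colonic CD90+ FB replicate 2, which left 3 counts in FB, the ratio of mean CPM in pericytes to that in FB was 38.8, 95% counting interval 13.3 to 188. *Colec11* was at 0 in all SMC libraries, at least 27.8-fold lower than in small intestinal pericytes. This call (adjusted p 0.0146) was lost without any 1 of the SMC libraries (0.0503 to 0.0550) and in a fit of the compared libraries alone (0.0506).

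Soluble regulators differed in where they were found. *Vtn*, which encodes vitronectin, a binder of terminal complexes, was nearly limited to pericytes, with 334, 229 and 216 CPM (small intestine) and 129, 114 and 109 CPM (colon), and at most 2.40 CPM on average elsewhere. It was lower in FB, at −8.69 (95% interval −10.26 to −7.12, adjusted p 2.55e-09) in the small intestine and −9.17 (95% interval −10.68 to −7.66, adjusted p 3.02e-10) in the colon. These were −9.34 and −10.29 on protein-coding transcripts, the small intestinal one −9.37 without PDGFRα hi FB replicate 2, and the colonic one −8.51 with length-scaled counts. Between pericytes, *Clu* was at 0 in all small intestinal libraries and at 1.18, 0.126 and 13.9 CPM in the colon, at least 11-fold lower and only at least 1.41-fold lower without colonic replicate 3, and this call (adjusted p 0.0497) was lost in 5 of 6 fits that left out a library, with adjusted p up to 0.173, as well as with the replicate block (0.0857), with length-scaled counts (0.0551) and on protein-coding transcripts (0.0640). *Serping1* was the soluble regulator shared by all 10 populations.

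Among membrane regulators, *Cd55* encodes decay-accelerating factor, which dissociates C3 convertases. Its highest means were 1724 ± 412 CPM in colonic CD81+ FB, 1205 ± 71.3 CPM in colonic CD90+ FB, 597 ± 50.5 CPM in colonic Fgfr2+ FB and 483 ± 59.9 CPM in small intestinal CD34+ FB. Small intestinal Fgfr2+ FB had 119 ± 49.6 CPM and small intestinal PDGFRα hi FB 2.29 ± 0.713 CPM, a difference of 5.67 (95% interval 4.23 to 7.11, adjusted p 5.10e-06). Small intestinal pericytes had 3.86, 0.379 and 2.83 CPM, and PDGFRα hi FB were within their range. Taken over the FB populations, *Cd55* was higher than in pericytes by 4.48 (95% interval 3.16 to 5.80, adjusted p 7.23e-06) in the small intestine and 6.66 (95% interval 5.22 to 8.09, adjusted p 2.70e-08) in the colon, and lower in small intestinal than colonic PDGFRα hi FB, at −3.19 (95% interval −4.5 to −1.88, adjusted p 0.00520). *Cd55* in SMC (60.0, 27.8 and 254 CPM) exceeded that in pericytes by 5.64 (95% interval 4.18 to 7.10, adjusted p 1.89e-06), by 4.32 without SMC replicate 3 and by only 2.89 (adjusted p 0.0120) on protein-coding transcripts. On those transcripts, the *Cd55* differences were 3.47 between FB and pericytes in the small intestine, 5.76 in the colon and 6.51 for Fgfr2+ FB over PDGFRα hi FB of the small intestine, and that between PDGFRα hi FB of the tissues was not called (−3.04, adjusted p 0.0529). *Cr1l*, the gene of the rodent regulator Crry, was even, with population means between 83.0 and 167 CPM. *Cd59a* was highest in SMC (94.3 ± 33.0 CPM), and *Cd46* averaged at most 22.9 CPM. *Cd55b* was at 0 in all colonic pericyte libraries and at least 11.4-fold higher in the mean of colonic FB. That mean was carried by CD81+ FB (4.99, 4.16 and 10.6 CPM) and CD90+ FB (6.53, 8.10 and 3.82 CPM), while Fgfr2+ FB had 0.827, 1.46 and 1.11 CPM and PDGFRα hi FB 0, 0 and 0.136 CPM, which is below the floor. The call (adjusted p 0.0144) was lost without pericyte replicate 3 (0.0530) or PDGFRα hi FB replicate 3 (1.00).

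Of the terminal components other than *C7*, *C6* reached 43.1, 151 and 45.6 CPM in small intestinal Fgfr2+ FB and averaged 19.6 CPM in small intestinal PDGFRα hi FB. In colonic pericytes it was at 0.645, 51.4 and 0 CPM, so that 1 library gave the mean. *C9* was at 0 in all libraries, and *Hc*, the C5 gene, averaged at most 0.18 CPM. The anaphylatoxin receptor gene *C5ar1* was found in PDGFRα hi FB, with 86.7, 66.6 and 64.9 CPM (small intestine) and 15.2, 6.89 and 56.9 CPM (colon), and averaged at most 3.37 CPM elsewhere. Its difference between small intestinal FB and pericytes, 4.09 (95% interval 1.19 to 7.0, adjusted p 0.0410), was not called without any 1 of 9 of the 12 libraries, with adjusted p up to 0.123, nor with the replicate block (3.83, adjusted p 0.0639). *C3ar1*, the C3a receptor gene, was higher in SMC than in pericytes by 3.81 (95% interval 1.71 to 5.91, adjusted p 0.0146), which rested on SMC replicate 3 (SMC had 4.54, 3.18 and 58.1 CPM), since without it the difference was 1.36 (adjusted p 0.394), and in a fit of the compared libraries alone it was 3.82 (0.261). The integrin gene *Itgam* was lower in small intestinal FB than in pericytes (11.8, 19.1 and 25.8 CPM), at −2.10 (95% interval −3.15 to −1.05, adjusted p 0.00413), and was uncertain because 68.3% of its 31-base stretches were shared.

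Counts of list genes called are given beside those of all genes tested. Medians of log2 differences are given with genes at 0 throughout 1 group set to their bound, or left out where the other group was not above the floor, which kept between 29 and 34 of the 35 genes, and then as fitted for all 35. In the small intestine, 7 of the 35 tested list genes were called higher and 4 lower in FB than in pericytes (against 1245 higher and 1665 lower of all genes), with a median of 0.53, or 1.91 as fitted, against 0.02 over all genes tested. In the colon, 7 were higher and 3 lower (against 1177 higher and 1630 lower of all genes), with a median of 0.27, or 0.37 as fitted, against −0.01 over all genes tested. For SMC against pericytes, 3 were higher and 4 lower (against 941 higher and 843 lower of all genes), with a median of −0.51, or 0.00 as fitted, against 0.00 over all genes tested. The small intestinal comparisons with pericytes share the pericyte libraries. Fgfr2+ FB had 4 list genes higher than PDGFRα hi FB and 0 lower in each tissue (against 238 higher and 205 lower of all genes in the small intestine and 147 higher and 87 lower of all genes in the colon), with *C3*, *C4b* and *Cd55* among them in both. The medians were 0.35, or 0.31 as fitted, against −0.01 over all genes tested in the small intestine and 0.63, or 0.59 as fitted, against 0.02 over all genes tested in the colon. Small intestinal CD34+ FB had 1 gene higher and 0 lower than Fgfr2+ FB (against 147 higher and 66 lower of all genes), with a median of 0.69, or 0.81 as fitted, against 0.03 over all genes tested. Colonic CD81+ FB had 2 higher and 0 lower than Fgfr2+ FB (against 60 higher and 105 lower of all genes), with a median of 0.36, or 0.36 as fitted, against 0.05 over all genes tested. CD90+ FB against Fgfr2+ FB had none called with edgeR and a median of 0.21, or 0.24 as fitted, against 0.01 over all genes tested. Between tissues the calls were few and went both ways. Pericytes had 2 genes higher and 1 lower in the small intestine (against 520 higher and 480 lower of all genes), with a median of 0.28, or 0.06 as fitted, against 0.00 over all genes tested. PDGFRα hi FB had 1 higher and 2 lower (against 59 higher and 109 lower of all genes), with a median of −0.07, or −0.07 as fitted, against 0.02 over all genes tested, and Fgfr2+ FB 1 higher and 2 lower (against 90 higher and 165 lower of all genes), with a median of 0.28, or 0.29 as fitted, against −0.02 over all genes tested. *Cd55* was lower in small intestinal than in colonic Fgfr2+ FB, at −2.33 (95% interval −3.54 to −1.11, adjusted p 0.0385). This call was lost without any 1 of the 6 libraries (adjusted p 0.0747 to 0.226), with length-scaled counts (0.0538) and on protein-coding transcripts (−1.68, 0.293), and that of *Cd55* in PDGFRα hi FB without small intestinal replicate 1 (0.0636).

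**Figure D3:**
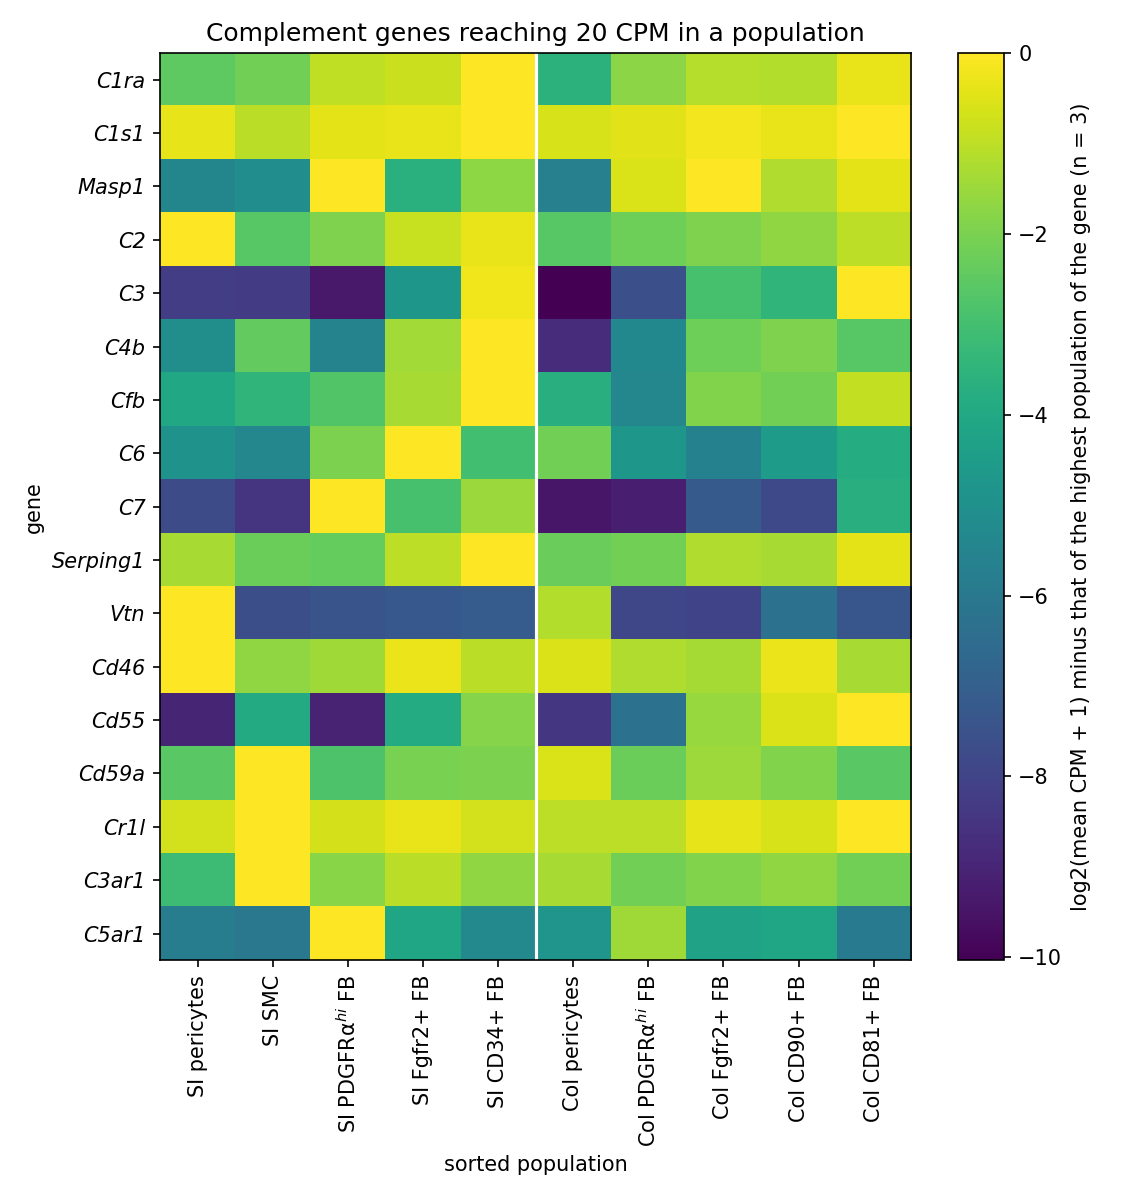
Complement genes from the 6 lists, each with a mean of at least 20 CPM in a population, as log2(mean CPM + 1) of 3 libraries minus the value of the gene's highest population, so that colours compare populations within a gene and not genes with each other. *C3* and *Cfb* are highest in small intestinal CD34+ FB and colonic CD81+ FB, *Cd55* in colonic CD81+ and CD90+ FB, *Vtn* is high in pericytes, and *C7* and *C5ar1* are highest in small intestinal PDGFRα hi FB.

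Promoter sequences were available for 5 of the 9 members (*C1ra*, *C1s1*, *C3*, *C7* and *Cfd*) in a RefSeq set of build GRCm38.p6, and those of *C3* and *C7* are shown because these members gave the main differences between populations. Each sequence is the 250 bases before the transcription start, 5′ to 3′ on the strand of the gene. Both strands were searched for a STAT motif (TTC and GAA with 3 free bases between), an interferon-stimulated response element (TTTC and TTTC with 2 free bases between) and an NF-kB motif (GGG and CC with 5 free bases between), and capitals mark matches to any of them. The *C3* window, chr17:57228137-57228386 on the − strand, had 5 matches to the NF-kB motif, 3 on the strand shown and 2 on the other. They lay at 3 places, at 2 of which matches on both strands overlapped, and the last ended at the base before the start. The *C7* window, chr15:5063774-5064023 on the − strand, had 1 match to the STAT motif, from base 164 to base 156 before the start.
C3: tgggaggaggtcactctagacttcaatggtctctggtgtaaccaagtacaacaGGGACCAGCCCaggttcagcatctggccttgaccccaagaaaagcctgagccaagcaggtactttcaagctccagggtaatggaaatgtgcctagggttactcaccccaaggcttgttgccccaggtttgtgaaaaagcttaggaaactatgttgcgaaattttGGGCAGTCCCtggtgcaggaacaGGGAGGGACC
C7: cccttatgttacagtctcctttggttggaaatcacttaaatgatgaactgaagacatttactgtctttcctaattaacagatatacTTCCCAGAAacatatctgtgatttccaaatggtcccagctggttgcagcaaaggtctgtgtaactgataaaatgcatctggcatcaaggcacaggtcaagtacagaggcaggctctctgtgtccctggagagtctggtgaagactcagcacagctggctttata
The NF-kB motif was found in 45.8% of 32851 promoters of this length, the STAT motif in 7.02% and the interferon-stimulated response element in 2.98%. A match is a description of the letters only.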

How the data were processed

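The deposited files give, per library, the estimated count of each transcript, which the authors had computed with kallisto 0.42.5 on the mouse transcriptome (GRCm38) after Trim Galore 0.4.0 and FastQC 0.11.2. The libraries were 50 base single reads of amplified RNA. Of 98492 transcripts per file, 97204 were matched by identifier to GENCODE M21, and their estimated counts were summed to 32386 symbols and rounded, which kept between 97.8% and 99.2% of the counts of a library. A gene was tested when 3 or more libraries had 6 or more counts of it. All 30 libraries were fitted in edgeR 4.0.16 (R 4.3.3, limma 3.58.1) with TMM factors and a mean per population, which left 20 residual degrees of freedom, and contrasts were tested with its quasi-likelihood test. FB as a whole were the mean of the log levels of the FB populations of a tissue. A call required an absolute log2 fold change above 1.5 and p below 0.05 after Benjamini-Hochberg adjustment. The log2 CPM used for correlations and nearest libraries had a prior count of 2, while the fit kept the default prior count of edgeR. The common biological coefficient of variation was 0.819.

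The alternatives were DESeq2 1.42.0, relative log expression (RLE) scaling, no filter, the replicate number as a block, counts scaled to effective length, only the libraries compared, and each library left out in turn. A sum over protein-coding transcripts only was added after seeing the data. The members, the complement lists and the marker lists (sorting genes, pericytes, smooth muscle, fibroblasts, leukocytes, endothelium, epithelium, mesothelium, adipocytes, glia, plasma cells and interstitial cells of Cajal) were chosen with earlier results of these data known. Genes were named from the members, other list genes that reach a mean of 20 CPM in a population or are called (the 3 with the largest absolute log2 fold change per direction and comparison), the 3 genes most like each member in profile, and the markers, not all of which are given, while *C1qa*, *C1qb*, *C1rb*, *C1s2*, *C9*, *Hc* and *Itgam* were named after their values were seen. Genes with like profiles were sought among genes with a mean of at least 10 CPM. Stretches of 31 bases shared with transcripts of other genes were counted, and genes with 50% or more were called uncertain. The procedure was tested on simulated data, in which, at a wide spread, edgeR missed most of the changed genes and DESeq2 made more false calls than edgeR. That spread was set beforehand and equal for all genes, so that false calls in these data were not measured. Tables and figures were made with Python 3.11.15, numpy 2.4.6, pandas 2.3.3 and matplotlib 3.10.9.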

Additional observations from a re-analysis of the deposited data

Results flagged for a closer look

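The tissue difference of *C7* was tested between 2 FB subsets. Small intestine exceeded colon by 10.22 in PDGFRα hi FB and by 4.46 in Fgfr2+ FB (log2), and the interaction test of the difference between these values gave −5.76 (95% interval −8.33 to −3.19, adjusted p 0.0219) with edgeR. It stands out because the same contrast gave different values in different groups of cells. Colonic PDGFRα hi FB held 1, 1 and 20 counts of *C7*, so that the larger value rests on few counts in the colon. The call was lost in 6 of the 12 fits that left out a library (adjusted p up to 0.0898), and the value was −8.61 without colonic PDGFRα hi FB replicate 3. The gates of Fgfr2+ FB differed between the tissues in CD34, and those of both subsets used PDGFRα in the small intestine and PDPN in the colon, which cannot be told apart from tissue.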

How the results depend on the processing

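Most results kept their direction and their side of the threshold, namely 71 with RLE scaling, 69 with DESeq2, 67 with the replicate block, 64 without a filter, 64 on protein-coding transcripts, 63 with length-scaled counts, 62 with only the compared libraries, and 563 with a library left out, against 59 that fell below it and 5 that newly passed it with a library left out. In data simulated with an equal spread for all genes, DESeq2 made more false calls than edgeR, but its false calls here were not measured. DESeq2 called more genes, with 2955 for SMC against pericytes, 919 and 479 for Fgfr2+ against PDGFRα hi FB in small intestine and colon, 598 for CD34+, 537 for CD81+ and 37 for CD90+ against Fgfr2+ FB, 2410, 402 and 820 between tissues in pericytes, PDGFRα hi FB and Fgfr2+ FB, and 371 for the interaction. A fit of the compared libraries alone called 393, 477 (colon), 395, 68 and 2 genes in the same order, 0 in pericytes, 406 in PDGFRα hi FB and 201 for the interaction. Without a filter CD90+ against Fgfr2+ FB gave 3. With single libraries left out, the genes called ranged from 129 to 162 for colonic Fgfr2+ against PDGFRα hi FB, 126 to 180 for CD34+ and 84 to 193 for CD81+ against Fgfr2+ FB, 626 to 1711 for pericytes between tissues, 108 to 122 for PDGFRα hi FB, 163 to 217 for Fgfr2+ FB and 63 to 97 for the interaction. Members called for SMC against pericytes were 1 without a filter, with length-scaled counts, on protein-coding transcripts and with only the compared libraries, and 1 to 3 with a library left out. For CD81+ against Fgfr2+ FB they were 1 with length-scaled counts and with only the compared libraries, and 0 to 2 with a library left out. For pericytes between tissues they were 4 with DESeq2, 1 with the replicate block (a pairing the labels leave unclear), with length-scaled counts and on protein-coding transcripts, 0 with only the compared libraries, and 1 to 3 with a library left out. For PDGFRα hi FB between tissues they were 2 without a filter and with only the compared libraries, for Fgfr2+ FB 2 without a filter and 0 to 1 with a library left out, and for the interaction 0 to 1 with a library left out. Directions turned only for values not called. *C1s1* turned to −0.33 (small intestine) and −0.16 (colon) between FB and pericytes with length-scaled counts, and with single libraries left out the small intestinal values ranged from −0.0743 to 0.33 for *C1s1* and from −0.0625 to 0.89 for *Serping1*, the lowest without pericyte replicate 3 and the highest of *Serping1* without pericyte replicate 1. Between CD90+ and Fgfr2+ FB, *C3* ranged from −1.10 to 0.24, turning without Fgfr2+ FB replicate 3, and *C4b* from −0.27 to 0.52, turning without CD90+ FB replicate 2. The *C3* interaction turned to −0.37 and −0.04 without colonic Fgfr2+ FB replicates 1 and 2, to −0.27 without colonic PDGFRα hi FB replicate 3, to −0.00898 without small intestinal PDGFRα hi FB replicate 3 and to −0.46 without small intestinal Fgfr2+ FB replicate 1, and it reached 0.81 without colonic Fgfr2+ FB replicate 3. The cause was not tested. Depth limits *Cfd*, *C7* in the colon and *Cfb* in pericytes, whose values rest on few counts, and the floor per library is up to 1.04 CPM.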
